A study of Homo sapiens with 6 samples.

Results

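SR proteins and heterogeneous nuclear ribonucleoproteins (hnRNPs) are RNA-binding proteins that steer splice site choice. The 39 genes described here are 11 SR proteins, 19 hnRNPs, the regulators RBFOX2 and PTBP1, the 4 CLK kinases, and the SR-related large proteins SRRM1, SRRM2 and SON. They were taken by name from a list of splicing regulators that was drawn up with earlier results of these data known. All 39 were matched by symbol among the 61552 genes of the files. RNA of NCI-H520 cells, an established wild-type line of human lung squamous cell carcinoma, was sequenced after 48 h with phosphate-buffered saline (PBS, 3 libraries) or with cisplatin at 2 µM (3 libraries), a DNA-crosslinking platinum compound. All 6 libraries come from this 1 line, grown in serum-containing RPMI-1640, and nothing in the labels states that replicates were cultured separately. The p-values therefore speak only of library-to-library spread, which may be technical.

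As background, SR proteins carry domains rich in arginine and serine and mostly promote the use of exons by binding enhancer sequences, whereas many hnRNPs bind silencer sequences and oppose it. CLK kinases phosphorylate the arginine-serine domains and thereby release SR proteins from nuclear speckles, whose scaffold includes SON and SRRM2. Many SR protein and hnRNP genes limit their own protein through transcripts that hold a premature stop codon and are degraded. Several hnRNPs also accompany mRNA during export.

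The libraries held 9121180 to 16724285 expected counts (estimated fragments per gene). Mitochondrial genes took 4.15% to 6.05% of the counts under PBS and 3.26% to 4.13% under cisplatin. Of 8 epithelial and squamous markers, KRT8, KRT18, EPCAM and SOX2 had at least 2520 counts in each library. The other 4 were low: CDH1 had 133 to 354 counts, the squamous keratins KRT5 and KRT6A 47 to 88 and 15 to 37, and the squamous factor TP63 at most 3. Of 12 markers of leukocytes, endothelium and fibroblasts, PTPRC, CD3E and COL3A1 were at 0 in all 6 libraries and 8 of the 12 never exceeded 3 counts. Their summed level was 10.3 to 15.996 CPM (counts scaled to library size) under PBS and 23.3 to 24.4 CPM under cisplatin, nearly all from COL1A1, and their part in the results below was not tested.

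After cisplatin most hnRNPs were lower, whereas the SR proteins were mixed; the difference between both classes was not tested. Of the 39 genes, all of which passed the low-count filter, 23 fell and 0 rose at an adjusted p under 0.05 (quasi-likelihood test of edgeR, Benjamini-Hochberg adjusted over 15063 genes), where 19.3% of all tested genes were lower, 18.9% were higher and 38.2% were called in either direction. The hnRNPs gave 16 lower of 19, with a median log2 fold change of -0.33. The SR proteins gave 4 lower of 11, with a median of -0.11, and of the 7 others 4 had a positive and 3 a negative log2 fold change. Over all tested genes the median was -0.00035. Because the list was drawn up with earlier results of these data known, these counts and medians are descriptions only. At an unadjusted p under 0.05, 2 of the 39 were higher (SRSF5 and SRSF6) and 26 lower, and DESeq2 and limma-voom each called 24 lower and 0 higher. In bulk RNA, fewer cells of a type and less RNA per cell cannot be told apart.

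**Figure D1:**
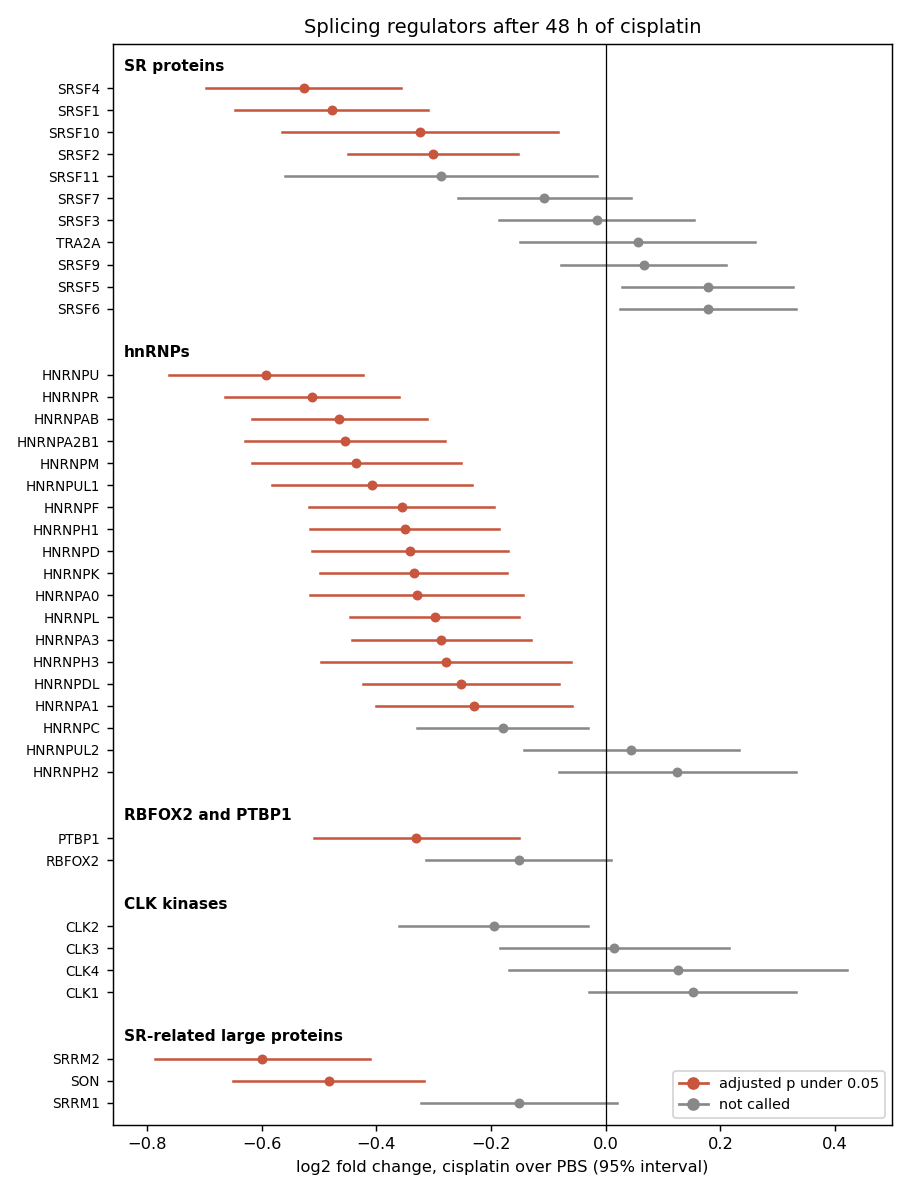
Log2 fold change of each of the 39 genes, cisplatin over PBS, with the 95% interval from edgeR (3 libraries a group), by class. Red marks an adjusted p under 0.05. All 23 red points lie below 0, and 16 of them are hnRNPs.

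The groups of 3 libraries did not overlap in 29 of the 39 genes, 25 with the cisplatin libraries all below the PBS libraries and 4 the other way, where 49.7% of all tested genes did not overlap. Among hnRNPs all 16 separated genes were lower. Among SR proteins 4 were lower (SRSF1, SRSF2, SRSF4 and SRSF7) and 3 were higher (SRSF5, SRSF6 and SRSF9), although none of the 3 was called. The 4th higher gene was the kinase CLK1.

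Because most hnRNPs moved together, the promoters of the members were compared by sequence. RefSeq promoters (GRCh38.p14, the same build as the files) were found for 35 of the 39 genes, 53 promoters in all, since some genes have several. In the 250 bases before the transcription start, the CCAAT box, a short motif bound by the factor NF-Y, was spelled on either strand in 17 of 29 hnRNP promoters (58.6%) and in 1 of 11 SR protein promoters (9.09%). The 29 promoters belong to 18 hnRNP genes and the 11 to 9 SR protein genes, as none was found for HNRNPA1, SRSF2 and TRA2A. It was present in 33.4% of the 16024 promoters of tested genes. The 5 sequences below are the 120 bases before the start of 3 hnRNP genes that fell, of SRSF3 and of SRSF6. SRSF3 is the 1 of 9 SR protein genes searched that has the motif, and SRSF6 lacks it. Neither SRSF3 nor SRSF6 was called, and SR protein genes that fell also lack the motif where a promoter was found. Capitals mark CCAAT or its reverse complement ATTGG.
HNRNPAB, chr5:178204413-178204532, plus strand: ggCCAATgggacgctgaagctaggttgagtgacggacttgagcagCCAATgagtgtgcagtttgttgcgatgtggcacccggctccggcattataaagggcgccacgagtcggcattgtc
HNRNPA0, chr5:137754364-137754483, minus strand: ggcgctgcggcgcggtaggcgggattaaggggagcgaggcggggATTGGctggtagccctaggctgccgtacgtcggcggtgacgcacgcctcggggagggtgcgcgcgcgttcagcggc
HNRNPL, chr19:38852348-38852467, minus strand: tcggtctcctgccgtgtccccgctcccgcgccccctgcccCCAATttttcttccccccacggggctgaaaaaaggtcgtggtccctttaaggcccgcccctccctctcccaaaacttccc
SRSF3, chr6:36594242-36594361, plus strand: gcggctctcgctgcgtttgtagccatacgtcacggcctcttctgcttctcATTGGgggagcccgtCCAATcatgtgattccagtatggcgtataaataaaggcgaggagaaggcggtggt
SRSF6, chr20:43457776-43457895, plus strand: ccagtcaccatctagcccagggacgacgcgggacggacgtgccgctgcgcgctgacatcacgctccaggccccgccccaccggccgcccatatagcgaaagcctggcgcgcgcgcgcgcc

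By call, 16 of 33 promoters of genes that fell held the CCAAT box (48.5%), as did 6 of 20 promoters of genes that were not called (30.0%). By gene these were 14 of 21 and 6 of 14. Most called genes are hnRNPs, so class and call overlap, and neither difference was tested. Among the hnRNPs, HNRNPC, HNRNPH2 and HNRNPUL2 were not called and all held the box. HNRNPD, HNRNPH1 and HNRNPM fell and lacked it in every promoter found, while the other hnRNPs searched that fell held it. Of the SR protein genes, SRSF1, SRSF4 and SRSF10 fell and lacked it, and SRSF3, which held it, was not called. Within each class, holding the box did not go with being called lower. Another 9 motifs were searched on both strands. TGACG, the half-site of the cyclic AMP response element, was in 26 of the 53 promoters (49.1%) against 27.6% of those of tested genes, including 15 of 33 promoters of genes that fell and 11 of 20 of genes not called. Its full site TGACGTCA, the YY1 motif AAGATGGC, the NRF1 motif and the E2F motifs TTTGGCGC and TTTCGCGC were in 0 of the 53. The ETS motif CCGGAAG was in 4, the TATA box TATAAA in 6, the GC box GGGGCGGGG in 11 and paired heat shock half-sites GAANNTTC in 2. In the promoters of tested genes these were present in 2.53%, 1.74%, 1.62%, 1.51%, 13.8%, 5.98%, 24.2% and 4.15%, in the same order. TGACG lies within its full site. The CCAAT box was singled out from these 10 motifs after the counts by class had been seen, and the printed promoters were chosen for holding or lacking it and for holding few annotated exonic bases, so these shares are descriptions of letters only.

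HNRNPU, a large scaffold protein that binds both chromatin-associated RNA and DNA, had the lowest log2 fold change of the hnRNPs. It is on chromosome 1, 244840638 to 244864560 (GRCh38, GENCODE 29), and stood at 837, 917 and 899.7 CPM in the PBS libraries and at 548, 580 and 632 CPM in the cisplatin libraries. The groups were far apart, and the log2 fold change was -0.59 ± 0.08 (SE; edgeR adjusted p = 1.6e-04), a fold of 0.663 with a 95% interval of 0.589 to 0.745. Of its exonic bases 15.6% are shared with COX20 on the opposite strand, which also fell (-0.29, adjusted p = 0.0306). Its relative HNRNPUL1 fell as well, from 371, 362 and 433 CPM to 293, 287 and 299 CPM (log2 fold change -0.41 ± 0.08, edgeR adjusted p = 0.0020). Its other relative, HNRNPUL2, was at 254, 236 and 297 CPM under PBS and 265, 277 and 269 CPM under cisplatin. Its groups overlapped (log2 fold change 0.04 ± 0.09, edgeR adjusted p = 0.713), and the read-through gene HNRNPUL2-BSCL2, which fell by 0.57 (adjusted p = 0.0049), covers 44.2% of its exonic sequence, so its reads may be divided between both. After a correction for transcript length HNRNPUL2 was called higher (0.26, adjusted p = 0.0168).

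HNRNPR, which binds mRNA and takes part in its transport, is on chromosome 1, 23303771 to 23344336. It stood at 180, 191 and 193 CPM under PBS and at 133, 135 and 127 CPM after the drug (log2 fold change -0.51 ± 0.07, edgeR adjusted p = 2.0e-04). SYNCRIP, its close relative outside the 39 genes, fell by 0.45 (adjusted p = 9.3e-04). HNRNPM, a splicing regulator of epithelial and mesenchymal exons, went from 466, 466 and 543 CPM to 355, 344 and 392 CPM (-0.43 ± 0.08, edgeR adjusted p = 0.0018). Neither gene's groups overlapped.

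The A/B family binds UAG-containing RNA. HNRNPA1, which represses exons and also shuttles mRNA out of the nucleus, had the highest level per length of all 39 genes, 1984 ± 262 TPM (abundance scaled to library size and transcript length; SD, n = 3) under PBS and 1578 ± 70.7 TPM under cisplatin. In CPM it went from 1807, 1806 and 1967 to 1620, 1467 and 1670.3, without overlap (log2 fold change -0.23 ± 0.08, edgeR adjusted p = 0.0361). The call did not hold when PBS replicate 1 (adjusted p = 0.0536) or 3 (0.0627), or cisplatin replicate 1 (0.0900) or 2 (0.214), was left out, nor with total count (0.0554) or upper quartile scaling (0.0551) or on TPM (limma, 0.0505). The files list 74 pseudogenes named after HNRNPA1, whose summed counts were 1.23% of those of the gene under PBS and 1.06% under cisplatin.

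HNRNPA2B1, the reader of many nuclear RNAs, went from 1095, 1257 and 1280.2 CPM to 845, 886 and 919.5 CPM (log2 fold change -0.45 ± 0.08, edgeR adjusted p = 0.0011). HNRNPAB went from 493, 487 and 525 CPM to 357, 354 and 379.7 CPM (-0.46 ± 0.07, adjusted p = 4.1e-04). Neither gene's groups overlapped, and both kept the call when any 1 library was left out. HNRNPA3 fell by 0.29 (adjusted p = 0.0080), a call lost without cisplatin replicate 1 (0.0608) and on TPM (limma, 0.0712). HNRNPA0 has 1 listed transcript of 8713 bases and was at 303, 290.03 and 347 CPM under PBS and 245, 234 and 269 CPM under cisplatin (-0.33 ± 0.09, adjusted p = 0.0097). Leaving out cisplatin replicate 2 ended its call (adjusted p = 0.0534), as did TPM (limma, 0.0672), and after the length correction its log2 fold change was 0.03 (adjusted p = 0.798).

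Of the D family, which binds AU-rich mRNA elements, HNRNPD fell by 0.34 (edgeR adjusted p = 0.0051) and HNRNPDL by 0.25 (adjusted p = 0.0245). HNRNPDL was no longer called when PBS replicate 1 (adjusted p = 0.0552) or 2 (0.0746), or cisplatin replicate 1 (0.142), was left out. HNRNPC, which guards introns against cryptic exons and binds uridine tracts, was at 732, 753 and 715 CPM under PBS and 666, 629 and 646 CPM under cisplatin. Its groups did not overlap, yet its log2 fold change of -0.18 ± 0.07 missed the threshold in edgeR (adjusted p = 0.0549); it passed without PBS replicate 3 (0.0358), in DESeq2 (0.0355) and in limma-voom (0.0390).

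The F/H family binds guanine-rich runs next to exons. HNRNPH1 went from 487, 533 and 558 CPM to 403, 432 and 401 CPM (log2 fold change -0.35 ± 0.08, edgeR adjusted p = 0.0035), and HNRNPF fell by 0.36 (adjusted p = 0.0029). HNRNPH3 fell by 0.28 with overlapping groups (adjusted p = 0.0450). The call of HNRNPH3 held without PBS replicate 1 and was lost without any of the other 5 libraries (adjusted p = 0.0713 and 0.161 without PBS replicates 2 and 3, and 0.202, 0.0515 and 0.0694 without cisplatin replicates 1, 2 and 3), and with upper quartile (0.0589) or total count scaling (0.0649). Its log2 fold change was -0.18 without PBS replicate 3. HNRNPH2, on the X chromosome, was at 57.1, 61.5 and 61.7 CPM under PBS and 62.8, 75.2 and 59.2 CPM under cisplatin, and its groups overlapped (0.12 ± 0.10, adjusted p = 0.324; 0.027 without cisplatin replicate 2 and 0.20 without cisplatin replicate 3). The poly(C)-binding HNRNPK fell by 0.33 (adjusted p = 0.0043) and HNRNPL, which binds CA repeats, by 0.30 (adjusted p = 0.0047).

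**Figure D2:**
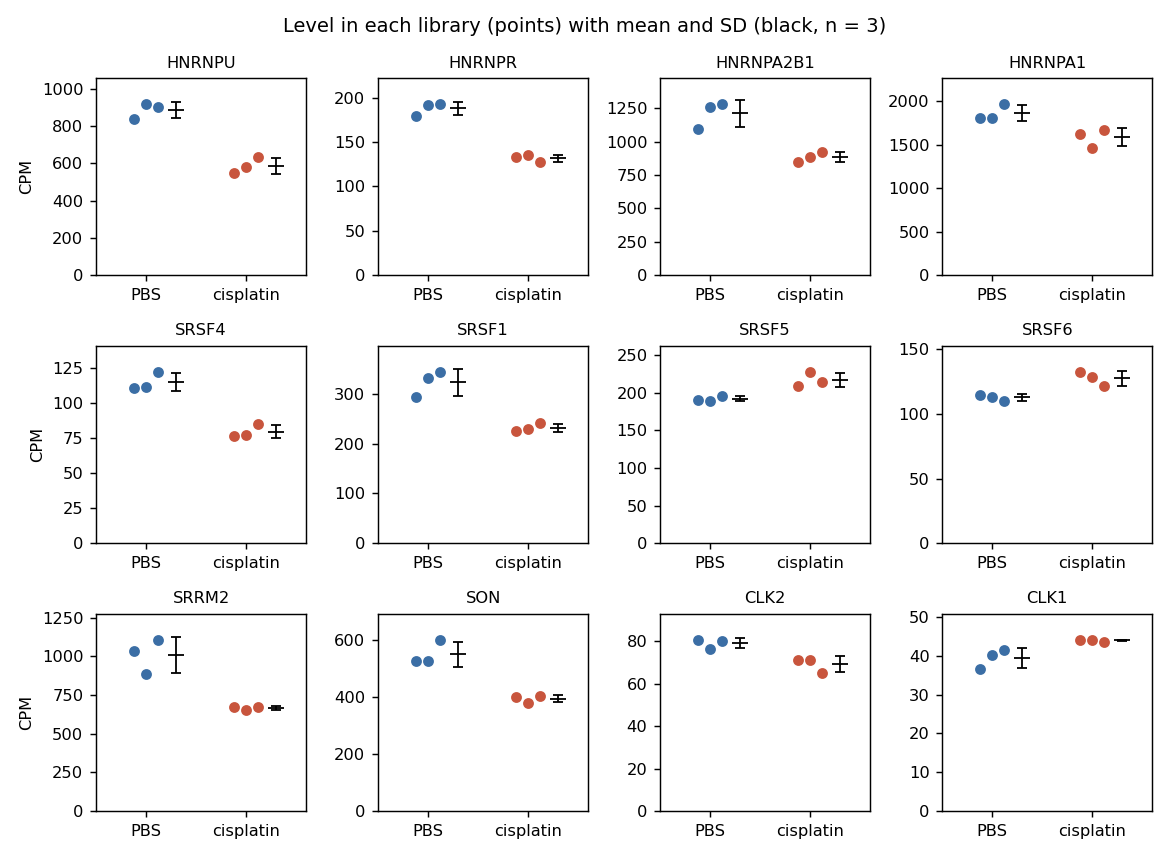
CPM (vertical axes, each from 0) of 12 genes in each PBS (blue) and cisplatin (red) library, with the mean and SD of 3 libraries in black. The groups are apart in each panel, lower under cisplatin in 9 genes and higher in SRSF5, SRSF6 and CLK1; these 3 and CLK2 were not called.

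Of the 11 SR proteins, edgeR called 4 lower and 0 higher. The called share was 36.4%, against 38.2% of all tested genes. SRSF4 (chromosome 1, 29147743 to 29181987), a large member of the family, went from 111, 112 and 122 CPM to 76.5, 77.4 and 85.4 CPM (log2 fold change -0.53 ± 0.08, edgeR adjusted p = 3.5e-04). SRSF1 (chromosome 17, 58003360 to 58007346), the founding member, which activates exons and regulates its own transcript, went from 294, 333 and 345 CPM to 226, 231 and 241 CPM (-0.48 ± 0.08, adjusted p = 6.1e-04). Neither overlapped between the groups. In GENCODE 29, 56.6% of the exonic sequence of SRSF1 is shared with a read-through gene on the same strand that was not called (0.23, adjusted p = 0.178), so the value of SRSF1 is less certain.

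SRSF2, which like SRSF1 recognises exonic enhancers, went from 302, 295 and 319 CPM to 254, 243 and 246 CPM (log2 fold change -0.30 ± 0.07, edgeR adjusted p = 0.0045); 36.7% of its exonic bases lie opposite MFSD11, which was not called (0.0042, adjusted p = 0.977). SRSF10, a splicing repressor when dephosphorylated, had 131, 161 and 137 CPM under PBS and 101, 135 and 107 CPM under cisplatin. Its groups overlapped, and its call (-0.32 ± 0.11, adjusted p = 0.0358) did not hold when PBS replicate 2 (0.141), or cisplatin replicate 1 (0.163) or 3 (0.124), was left out. SRSF11 had a similar log2 fold change and missed the threshold (-0.29 ± 0.13, adjusted p = 0.0893); it passed with the replicate number as a block (0.0128), without the low-count filter (0.0098), on TPM (limma, 0.0125) and without cisplatin replicate 2 (0.0198). Without PBS replicate 2 its log2 fold change was -0.14 (adjusted p = 0.366), and without cisplatin replicate 1 it was -0.18 (adjusted p = 0.339).

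SRSF5 was at 191, 189 and 196 CPM under PBS and at 209, 228 and 215 CPM under cisplatin. SRSF6 was at 115, 113 and 110.1 CPM under PBS and at 133, 129 and 121 CPM under cisplatin. In both genes, which encode close relatives of SRSF4, all cisplatin libraries stood above all PBS libraries. The 2 log2 fold changes were 0.18 ± 0.07 each and were not called in edgeR (adjusted p = 0.0574 and 0.0633). With upper quartile scaling (0.0402 and 0.0451) or a filter of 50 counts in 3 libraries (0.0398 and 0.0437) both were called higher, and the length correction left SRSF5 at 0.01 (adjusted p = 0.901) and SRSF6 at 0.19 (adjusted p = 0.0398). On TPM neither was called (limma), with 0.13 for SRSF5 (adjusted p = 0.342) and 0.010 for SRSF6 (adjusted p = 0.971).

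SRSF3, the smallest SR protein and, with SRSF9, the most abundant per length (318 ± 10.2 and 315 ± 35.7 TPM under PBS), was at 441, 467 and 390.4 CPM under PBS and 424, 435 and 425 CPM under cisplatin. The cisplatin values fell inside the PBS range (log2 fold change -0.02 ± 0.08, edgeR adjusted p = 0.895). SRSF9 (0.07, adjusted p = 0.459), SRSF7 (-0.11, adjusted p = 0.243) and TRA2A (0.06, adjusted p = 0.672) were not called either. The 95% intervals of the fold ran from 0.879 to 1.11 for SRSF3, 0.948 to 1.16 for SRSF9, 0.836 to 1.03 for SRSF7 and 0.902 to 1.20 for TRA2A. SRSF9 shares 46.2% of its exonic bases with GATC on the opposite strand, which was not called (-0.02). SRSF7 passed after the length correction (-0.24, adjusted p = 0.0114) and was at -0.067 without PBS replicate 1, and the sign of SRSF3 changed with the scaling, that of SRSF9 and TRA2A with the length correction.

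Summed over each class, the 19 hnRNPs took 9633, 9904 and 10478 CPM under PBS and 7827, 7833 and 8154 CPM under cisplatin. The 11 SR proteins took 2176, 2275 and 2203 CPM under PBS and 1971, 2067 and 2007 CPM under cisplatin. Both sums were lower in every cisplatin library than in any PBS library, by a fold of 0.794 and 0.909 of the geometric means. Per length, the ratio of summed SR protein TPM to summed hnRNP TPM was 0.255, 0.251 and 0.242 under PBS and 0.280, 0.2999 and 0.275 under cisplatin, 1.14-fold higher without overlap. No test is given for these sums, since the members were chosen as a list. PBS replicate 3 had the highest TPM sums, 8183 for the hnRNPs against 6325 and 6668 in the other PBS libraries; without it the log2 change of the ratio was 0.17, against 0.19 with all libraries.

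**Figure D3:**
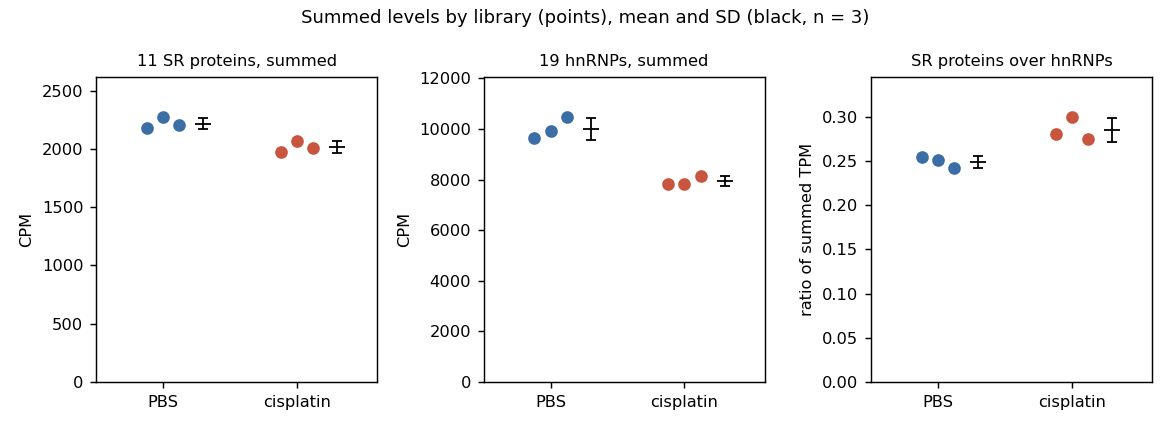
Summed CPM of the SR proteins and of the hnRNPs, and the ratio of their summed TPM, in each library (points), with mean and SD of 3 libraries (black), all axes from 0. Both sums are lower and the ratio is higher in all 3 cisplatin libraries.

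The CLK kinases were not called (0 of 4 in edgeR, 1 of 4 at an unadjusted p under 0.05, and 0 in DESeq2 and limma-voom). CLK2 was at 80.8, 76.6 and 80.5 CPM under PBS and 71.3, 71.4 and 65.1 CPM under cisplatin, lower without overlap (log2 fold change -0.20 ± 0.08, edgeR adjusted p = 0.0586). It passed after the length correction (-0.28, adjusted p = 0.0105) and on TPM (limma, -0.40, adjusted p = 0.0459). CLK1, whose own transcript is held with introns until stress releases it, was at 36.5, 40.2 and 41.6 CPM under PBS and 44.1, 44.0 and 43.7 CPM under cisplatin. These did not overlap either, and the difference was higher (0.15 ± 0.08, adjusted p = 0.168). CLK3 (0.01, adjusted p = 0.916) and CLK4 (0.13, adjusted p = 0.494), the least abundant of the 39 genes at 6.91 ± 1.16 TPM under PBS, overlapped between the groups. CLK4 ran from 0.024 without PBS replicate 1 to 0.20 without PBS replicate 2, with 0.053 and 0.19 without cisplatin replicates 2 and 3. The sign of CLK3 changed with the length correction (-0.09), on TPM (-0.07) and without PBS replicate 2 (-0.04), PBS replicate 3 or cisplatin replicate 1 (both -0.01).

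The speckle proteins gave the lowest log2 fold change of the 39 genes. SRRM2 (chromosome 16, 2752329 to 2772538) went from 1038, 885 and 1108 CPM to 671, 655 and 675 CPM (log2 fold change -0.60 ± 0.09, edgeR adjusted p = 2.9e-04). SON (chromosome 21, 33542618 to 33577481) went from 527, 525 and 602 CPM to 401, 379.9 and 402 CPM (-0.48 ± 0.08, adjusted p = 5.3e-04), and was not called on TPM (limma, -0.32, adjusted p = 0.160). Both were apart between the groups. SRRM1, a coactivator that bridges SR proteins, was at 145, 173 and 160.2 CPM under PBS and 139, 149 and 143 CPM under cisplatin, with overlap (-0.15 ± 0.08, adjusted p = 0.1504; -0.080 without PBS replicate 2).

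PTBP1, which represses exons beside pyrimidine tracts, went from 543, 506 and 621 CPM to 439.6, 437 and 451 CPM, without overlap (log2 fold change -0.33 ± 0.08, edgeR adjusted p = 0.0079). It was not called on TPM (limma, -0.32, adjusted p = 0.0874). RBFOX2, which binds GCAUG motifs near exons, was at 77.5, 71.7 and 73.6 CPM under PBS and 68.8, 66.0 and 65.6 CPM under cisplatin, apart yet not called (-0.15 ± 0.07, adjusted p = 0.124).

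Long transcripts were lower than short ones among all tested genes, which bears on the members. With the genes in 3 equal classes of mean deposited transcript length, the median log2 fold change of all genes was 0.17, 0.01 and -0.18 from the shortest to the longest class. The 15, 18 and 6 members in these classes had medians of -0.23, -0.33 and -0.37. With the length correction 25 of the 39 genes were lower and 2 higher (SRSF6 and HNRNPUL2), the median of the hnRNPs was -0.40 and that of the SR proteins -0.24, against -0.01 for all genes.

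**Figure D4:**
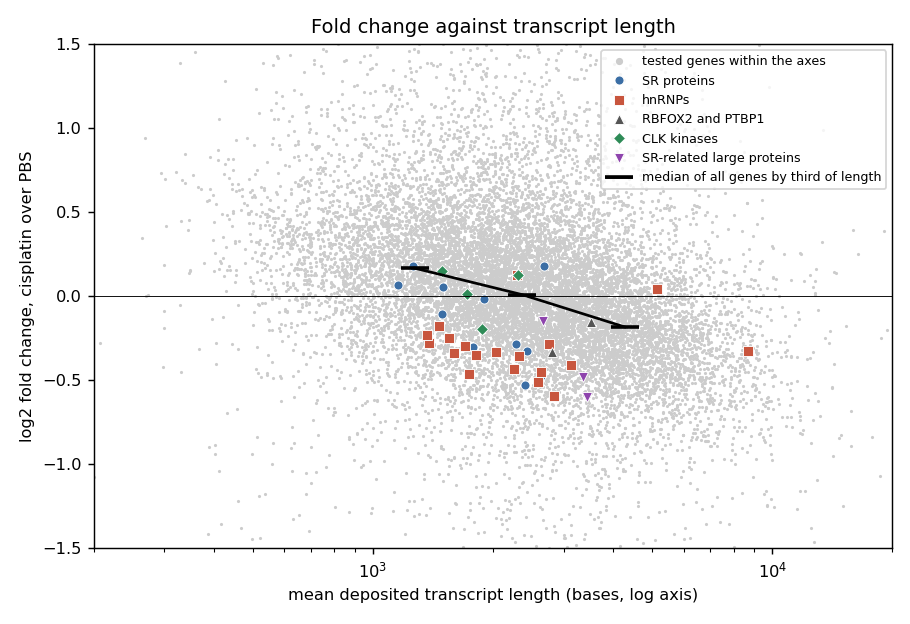
Log2 fold change (cisplatin over PBS) against mean deposited transcript length on a log axis for tested genes (grey; values beyond 1.5 in size are outside the axes) and the 39 members (coloured by class). Black bars are medians of all genes in each of 3 length classes, 0.17, 0.01 and -0.18; most members lie below them.

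The deposited length of a gene is the mean of its transcripts weighted by their estimated share, so it moves when the estimated mix of transcripts does. Of the 700 transcripts that the files list for the 39 genes, 556 are in GENCODE 29. Of these, 67 are annotated as targets of nonsense-mediated decay and 147 as retained introns. All 11 SR proteins have a decay transcript, as do 12 of the 19 hnRNPs, and such transcripts make up 18.6% and 10.7% of those matched. Matched were 118 of 125 SR protein transcripts but only 270 of 396 hnRNP transcripts. The type of the unmatched transcripts is not known here, so these counts and shares cannot be compared between the classes.

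In limma on log2 length 0 of 12873 genes, and 0 of the 37 members whose length varied, passed an adjusted p of 0.05 (0% called). At an unadjusted p under 0.05 there were 1485 genes (11.5%), 9 of them members, and no alternative called a gene. Length groups did not overlap in 9 of the 37 members, 6 longer and 3 shorter under cisplatin, where 18.4% of all genes did not overlap. PTBP1 was at 2917, 2813 and 2922 bases under PBS and at 2743, 2695 and 2725 bases under cisplatin, shorter in every library (log2 difference -0.08 ± 0.02, limma adjusted p = 0.231). SRRM2 went from 3697, 3567 and 3844 bases to 3451, 3234 and 2815 bases, also shorter in every library (-0.23 ± 0.08, adjusted p = 0.400).

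Longer in every cisplatin library were SRSF2, at 1667, 1822 and 1603 bases under PBS and 1842, 1859 and 1871 bases under cisplatin (limma adjusted p = 0.420), and SRSF3, at 1764, 1910.1 and 1795 against 1950.4, 1935 and 2003 bases (adjusted p = 0.366). HNRNPD was at 1552, 1568 and 1526 bases under PBS and 1671, 1638 and 1595 bases under cisplatin (adjusted p = 0.302). SRSF9 was longer by 0.02 in log2 length (adjusted p = 0.375). HNRNPF and HNRNPM were also longer in every cisplatin library (limma adjusted p = 0.546 and 0.456), and HNRNPL was shorter (0.394). Which transcript moved was not analysed here. The 6 genes drawn by length, and the 12 drawn by level, were picked after their values by library had been seen.

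**Figure D5:**
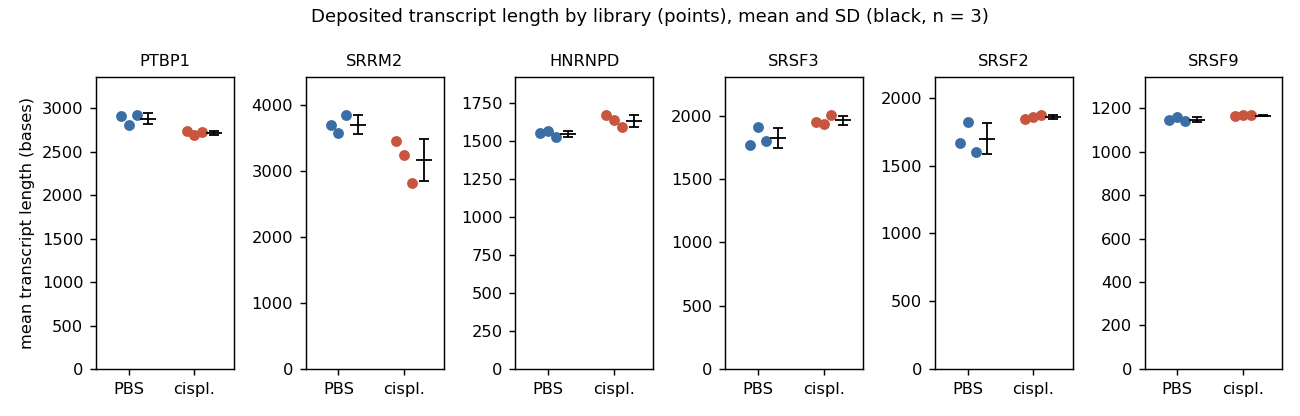
Deposited mean transcript length in bases (axes from 0) of 6 members in each PBS (blue) and cisplatin (red) library, with mean and SD of 3 libraries in black. PTBP1 and SRRM2 are shorter and HNRNPD, SRSF2, SRSF3 and SRSF9 longer in all cisplatin libraries; none passed an adjusted p of 0.05.

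Other genes of the splicing machinery came from lists of 5 classes. Of all tested genes, edgeR called 38.2%, with 19.3% lower and 18.9% higher. Called in either direction were 54.5% of the hnRNP-like and FET list and 25% of the kinase, phosphatase and importin list. For the other alternative splicing regulators the share was 50%. No difference from the share of all tested genes was tested. Of 11 tested hnRNP-like and FET proteins, 6 fell and 0 rose (also 0 at an unadjusted p under 0.05 in edgeR), with a median log2 fold change of -0.23; the most significant were the poly(C)-binding PCBP1 (-0.47, adjusted p = 3.8e-04), SYNCRIP (-0.45) and the FET protein TAF15 (-0.37, adjusted p = 0.0060). Of 8 genes of SR protein kinases, phosphatase and importin, 2 fell, DYRK1A (-0.35, adjusted p = 0.0109) and SRPK1 (-0.31, adjusted p = 0.0124), which phosphorylates SR proteins in the cytoplasm, and 0 rose (1 at an unadjusted p under 0.05). Of 24 other alternative splicing regulators 11 fell and 1 rose, with a median of -0.18. The speckle protein PNN (-0.45, adjusted p = 5.5e-04), the U1-associated LUC7L2 (-0.44, adjusted p = 9.0e-04) and RBM39 (-0.34, adjusted p = 0.0026) were lower, and RBM4 was higher (0.37, adjusted p = 0.0030).

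The core of the spliceosome, the machine that removes introns, did not share the lower median. Called in edgeR were 41.7% of the U1, U2 and Sm list and 20.8% of the U4/U6.U5 list, against 38.2% of all tested genes. Of 24 genes of the U1 and U2 particles and Sm ring, 7 rose and 3 fell, with a median of -0.05. Among those that rose were the Sm proteins SNRPG (0.48, edgeR adjusted p = 0.0054) and SNRPE (0.44, adjusted p = 0.0095) and the U2 subunit SF3B6 (0.37, adjusted p = 0.0068). Those that fell were the U2 subunits SF3B1 (-0.36, adjusted p = 0.0017), SF3B2 (-0.22, adjusted p = 0.0283) and SNRPA1 (-0.19, adjusted p = 0.0493). Of 24 genes of the U4/U6.U5 particle and catalytic steps, 3 rose and 2 fell, with a median of -0.01: LSM5 (0.43), LSM3 (0.34) and BCAS2 (0.29) against the helicase DHX15 (-0.49, adjusted p = 3.5e-04) and PRPF8 (-0.34, adjusted p = 0.0124). The difference between these lists and the hnRNPs was not tested. No value after the length correction is given for any list of other splicing genes. The part that the trend with transcript length has in their values was therefore not tested.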

How the data were processed

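Total RNA was extracted with TRIzol and made into libraries with a kit of ABclonal, per the labels' protocols, and aligned with STAR 2.7.9 to GRCh38 (hg38), per the submitters' processing notes. The authors deposited expected counts per gene, TPM, FPKM (not used) and mean transcript and effective lengths, with RSEM's columns per the file headers. For strand use and annotation release, the sources used here give nothing. It is therefore not known whether reads from bases shared by genes on opposite strands were told apart. Symbols were found for 61399 of 61552 identifiers; MATR3 matched 2 identifiers and was left out.

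Expected counts were rounded and tested with edgeR 4.0.16 (R 4.3.3; filterByExpr with a minimum of 10, TMM, quasi-likelihood, Benjamini-Hochberg over 15063 genes). CPM are TMM-scaled, except the summed CPM of the cell type markers, which are scaled to the total count only. SE is the size of the log2 fold change over the square root of F. Lengths were tested with limma 3.58.1 on log2. Alternatives were other scalings and filters, limma-voom, limma on log2(TPM + 1), DESeq2 1.42.0, a lowess length correction, the replicate block and leaving out each library. Both tests were checked on simulated data. The simulated length shift was larger than that of any member, and the simulated count changes were larger than those of most members. The check therefore does not show whether smaller shifts in length or counts would be found. Libraries held 9121180 to 16724285 counts, and replicates differed by more than counting noise (chi-square per degree of freedom 2.93 to 20.9), so the spread between libraries bears on precision more than depth does. All 39 members are named. Other lists give up to 3 called genes in each direction. HNRNPLL, of the hnRNP-like list, was not called (log2 fold change -0.02, edgeR adjusted p = 0.877). Members and lists were chosen with earlier results of these data known. The motif marked in the promoters was first TGACG and was changed to CCAAT after counts of 10 motifs by class had been seen; the printed promoters, the second background (promoters of tested genes), the members whose length is described and those drawn in figures were also picked after values had been seen. Overlaps come from GENCODE 29.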

Additional observations from a re-analysis of the deposited data

How the results depend on the processing

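Over the 16 alternatives, 15 of the 23 called genes kept call and direction throughout, 11 of them hnRNPs and 3 SR proteins. Of 624 fold changes recomputed for single genes, 565 kept direction and side of the threshold, 26 lost the call with the same sign, 18 gained it and 15 changed sign; among the last, HNRNPA0 also lost its call. The number of all genes called was 2861 in limma on log2(TPM + 1), against 5752. The count of members called higher, 0, was 2 with upper quartile scaling, 2 with the filter of 50 counts and 2 with the length correction; for SR proteins these were 2, 2 and 1, and for hnRNPs 1 with the length correction. Leaving out 1 library gave 18 to 22 members lower (18 without cisplatin replicate 1), 3 to 5 SR proteins, 12 to 15 hnRNPs, and 4205 to 5283 genes in all. The sign changed for SRSF3 with upper quartile (0.0052) and total count scaling (0.0029), for SRSF9 on TPM (-0.067) and with the length correction (-0.11), for TRA2A (-0.078) and HNRNPA0 (0.031) with the length correction, for HNRNPUL2 on TPM (-0.036), and for CLK3 on TPM (-0.073) and with the length correction (-0.089). Leaving out 1 library, SRSF3 ran from -0.088 (without PBS replicate 3) to 0.052 (PBS replicate 2), TRA2A from -0.0044 (cisplatin replicate 1) to 0.11 (PBS replicate 3), HNRNPUL2 from -0.019 (PBS replicate 2) to 0.14 (PBS replicate 3) and CLK3 from -0.040 (PBS replicate 2) to 0.10 (PBS replicate 1). Apart from the length correction, which removes a trend with length by construction, the cause was not tested. With the replicate number as a block 24 members were lower and 0 higher, and 5819 genes were called. Deviations of same-numbered libraries correlated at 0.0658, 0.123 and -0.076, so the numbers are not taken as pairs. The log2 change of the SR protein to hnRNP ratio ran from 0.16 to 0.22 without 1 library. Library depth limits CLK4, with 94 to 213 counts, the most.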
